A study of Homo sapiens with 4 samples.

Results

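The S100 family is a set of small calcium-binding proteins. The 10 genes described here are S100A2, S100A3, S100A4, S100A6, S100A10, S100A11, S100A13, S100A14, S100A16 and S100P. They were found by gene symbol in a count table of 60544 genes, where each symbol matched 1 row. All 10 passed the low-count filter and are among 16802 genes tested. The measurements are poly(A) RNA-seq counts from PC3, an established human prostate cancer line. There are 4 libraries in 2 groups. The 2 libraries labelled shNC come from the control arm, and the 2 libraries labelled sh812 were taken as the METTL3 knockdown arm, since the series names METTL3 knockdown against control. Both groups share the same line, medium and serum, and no drug, dose or time after knockdown is given in the labels. The labels name no clone and do not say that the 2 libraries of a group came from separate cultures, so the p-values measure the spread between these libraries, which may be technical. METTL3 is the catalytic subunit of the enzyme that methylates adenosine in mRNA (m6A), a mark whose best known sequence context is GGACT.

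S100 proteins bind calcium through paired EF-hand loops and mostly work as dimers. Calcium binding exposes a surface that grips partner proteins, among them annexins, the cytoskeleton, p53 and, outside the cell, receptors such as the one encoded by AGER. In epithelia and carcinomas, family members differ widely in level, and several are used as markers of epithelial state or spread. Most of the genes lie in a cluster in band 1q21 of chromosome 1, called the epidermal differentiation region, and S100P lies apart on chromosome 4.

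In the sh812 libraries, 7 of the 10 genes rose and 0 fell. Over all tested genes 5.43% rose and 5.42% fell, and 9.49% of those with transcripts no longer than the longest of the 10 rose. S100A2 and S100P rose most, by 1.84-fold and 1.83-fold in mean level. S100A3 followed at 1.47-fold, and the 4 abundant genes S100A6, S100A10, S100A11 and S100A16 rose by 1.14-fold to 1.22-fold. S100A4, S100A13 and S100A14 did not pass the test. Short transcripts as a class stood higher in the sh812 libraries, and all 10 genes are short. When that length trend was removed, S100A2 and S100P still passed and most of the smaller rises did not.

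Of the 10 genes, 9 lie on chromosome 1 on the minus strand (GRCh38, GENCODE 29), over bases 151982915 to 153631360. S100A10 (151982915 to 151994390) and S100A11 (152032506 to 152047907) come first. S100A6 begins at 153534599, S100A4 at 153543613, S100A3 at 153547329 and S100A2 at 153561108. S100A16 at 153606886, S100A14 at 153614255 and S100A13 at 153618787 close the run. S100P occupies bases 6693069 to 6697170 of chromosome 4, on the plus strand. S100A3 lies inside the span of S100A4 on the same strand, with 0 exonic bases shared. S100A13 shares 235 exonic bases with S100A1 on the opposite strand, where S100A1 had at most 21 counts. The counting's strand setting is not given in the sources used here, so reads from those bases cannot be assigned with certainty.

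The promoter window of S100A2, 250 bases before its first RefSeq start (chr1:153565845-153566094, minus strand, GRCh38.p14), is shown because this gene had the lowest adjusted p of the 10. It lies inside the S100A2 span of GENCODE 29, which extends further upstream. Capitals mark TGANTCA, the core recognised by AP-1 factors, searched on both strands. The motif begins 52 bases before the start.
S100A2: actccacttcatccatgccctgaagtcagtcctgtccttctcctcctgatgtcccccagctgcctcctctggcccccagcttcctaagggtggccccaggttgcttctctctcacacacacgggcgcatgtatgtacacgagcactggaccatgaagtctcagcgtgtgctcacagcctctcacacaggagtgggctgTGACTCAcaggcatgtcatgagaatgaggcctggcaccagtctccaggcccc

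S100A3 held the same motif 225 bases before its start. S100P, which rose as much as S100A2, had no TGANTCA in its window and held a TATA box motif (TATAAA) 28 bases before its start. S100A4 held TATAAA 31 bases before its start. S100A13 held it 29 bases before a RefSeq start further downstream, and the window at its first start held none. Capitals mark the motif in each 30-base stretch below, printed 5′ to 3′ on the strand of the gene.
S100A3 (chr1:153549465-153549494, minus): ggaatcaggagTGAGTCActgggctagcat
S100P (chr4:6693838-6693867, plus): atgaggctgcctTATAAAgcaccaagaggc
S100A13 (chr1:153627517-153627546, minus): ttccccgctgctTATAAAcctcagccctga
S100A4 (chr1:153545820-153545849, minus): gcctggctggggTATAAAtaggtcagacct

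Among the 35116 RefSeq promoter windows of this length, 6.57% held TGANTCA, 10.7% held TATAAA and 42.6% held GGGCGG, the core of the GC box. The 10 genes have 14 such windows, of which 2 held TGANTCA, 3 held TATAAA and 6 held GGGCGG. Counted by gene, 2, 3 and 6 of the 10 held these motifs in at least 1 window, a measure unlike the shares per window. A match is a description of the sequence, and no binding was measured.

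The mRNAs were also read for GGACT on the transcript strand. Counting began at the first RefSeq start where that lay in an exon of the transcript, and otherwise covered the whole transcript. The motif occurred in 6 of the 10 genes, at 11 places. S100A3 had 4, S100A2 and S100P had 2 each, and S100A4, S100A13 and S100A14 had 1 each. The 4 abundant genes S100A6, S100A10, S100A11 and S100A16 had none, though the longer GENCODE transcripts of S100A6 and S100A10 hold 2 and 1 before that start. Among tested genes with transcripts no longer than the longest of these genes, 51.1% held GGACT, and among all tested genes with a transcript length 85.5% did. In S100A2, S100P, S100A3 and S100A4, a GGACT in the coding sequence sat within a shared run of 10 bases, aggtGGACTt, between 79 and 94 bases before the end of the coding sequence. The same run occurred in 108 of 16627 transcripts of tested genes (0.65%). It was picked from the sequences of these members of the same family, so that share is a description and not a test. The 21-base windows are shown with GGACT in capitals.
S100A2 (chr1:153561511-153561531, minus): cagcaggtGGACTtccaggag
S100P (chr4:6696953-6696973, plus): gcccaggtGGACTtcagtgag
S100A3 (chr1:153547766-153547786, minus): tgcgaggtGGACTttgtggag
S100A4 (chr1:153543843-153543863, minus): aacgaggtGGACTtccaagag
The first 3 of these genes rose and S100A4 did not pass the test. Methylation of these bases was not measured.

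The libraries held 31450648 to 37041330 counts. METTL3 itself had 1682 and 1379 counts under shNC and 269 and 313 under sh812, or -2.42 on the log2 scale (adjusted p = 5.54e-14, edgeR quasi-likelihood, Benjamini-Hochberg), so the labels and the targeted gene point the same way. The epithelial markers KRT8, KRT18 and EPCAM were present in each library, with a summed level of 430.1 and 488 CPM in shNC and 537 and 549 CPM in sh812, and KRT18 and EPCAM passed the test as higher. Leukocyte markers summed to 0.399 to 0.844 CPM with CD3E at 0, and fibroblast markers summed to 33.2 to 43.1 CPM. Of the endothelial genes, CDH5 stood at no more than 0.168 CPM and PECAM1 passed as higher, at 23.8 and 23.7 CPM in shNC and 32.9 and 38.5 CPM in sh812. Androgen-axis markers summed to 18.7 and 21.1 CPM in shNC and 6.72 and 7.04 CPM in sh812, with KLK3 at 0 in all 4. In bulk RNA, a change in the share of cells with a given gene and a change in RNA per cell cannot be told apart. Whether the marker levels play a part in the S100 changes was not tested.

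Values below are CPM, counts relative to library size after scaling by the trimmed mean of M-values (TMM), unless named otherwise. A gene is said to have risen or fallen where the quasi-likelihood test of edgeR gave a Benjamini-Hochberg adjusted p under 0.05 over all 16802 genes. At that threshold 5.43% of all tested genes (912) rose and 5.42% (910) fell, against the 7 and 0 of the 10 S100 genes. With scaling by library size alone the split over all genes was 561 and 1328. The log2 fold change was above 0 for all 10 genes described here and for 49% of all tested genes. Its median was 0.29 over the 10 genes and -0.01 over all. Of the other S100 genes, 3 were tested and 2 of them were above 0. Both sh812 libraries lay above both shNC libraries for 9 of the 10, where 26.2% of all tested genes showed that order.

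Levels spanned 3 orders of size. Levels per kilobase (RPKM) used each transcript from its first RefSeq start, or in full where that start lay outside its exons, as for S100A13. By this measure S100A6 was the most abundant, at 1975 ± 298 in shNC and 2415 ± 50.9 in sh812 (SD, n = 2 libraries each). S100A10 (533 ± 20.8), S100A11 (486 ± 13.3) and S100A16 (427 ± 31.3) came next in shNC. The order of those 3 depends on the length used, since with all exons of a gene counted S100A11 stood above S100A16 and S100A10. A wide gap separated them from S100A2 at 31.7 ± 4.05 RPKM. S100A4 (23.5 ± 6.35) and S100A13 (21.9 ± 2.09) did not differ beyond their spread in shNC. S100A3 at 8.71 ± 0.501, S100P at 6.47 ± 0.743 and S100A14 at 1.81 ± 0.135 were the least abundant. In sh812 the order by this measure was the same, and S100A3 (12.8 ± 2.14) and S100P (11.8 ± 0.518) lay within their spread of each other.

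**Figure D1:**
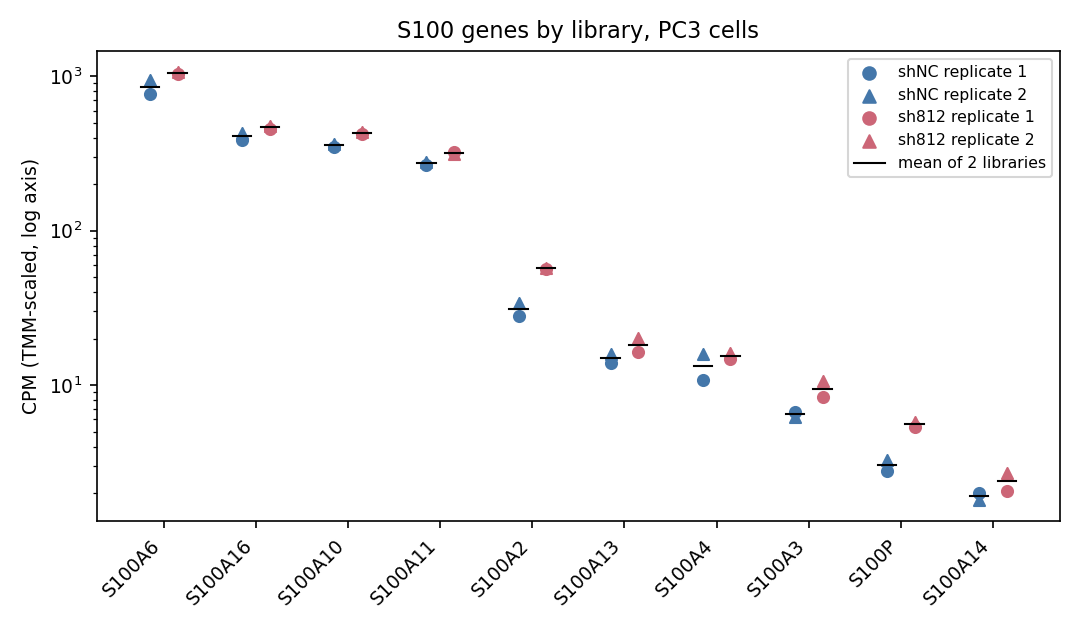
Level of each S100 gene in each library, as TMM-scaled CPM on a log axis, with circles for replicate 1, triangles for replicate 2 and a bar for the mean of 2 libraries. The 4 abundant genes lie between 268 and 1064 CPM and the other 6 between 1.8 and 57.7 CPM, and the sh812 points lie above the shNC points for all genes other than S100A4.

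S100A2, a gene of basal epithelial cells whose protein binds p53, read 28.2 and 33.8 CPM in the shNC libraries and 56.3 and 57.7 CPM in the sh812 libraries. The raw counts were 1070 and 1069 against 1976 and 2065. The groups were far apart, and both sh812 libraries lay above the higher shNC library by more than the distance between the shNC libraries. The log2 fold change was 0.88 (SE 0.09, adjusted p = 1.99e-07, edgeR quasi-likelihood, Benjamini-Hochberg). Over the 15 alternative settings computed, this value ranged from 0.75 to 1.02 and passed the test in all 15.

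S100P, first found in placenta and known to bind ezrin and the AGER receptor, was a low gene here, with 106 and 104 counts in shNC and 189 and 205 in sh812. Scaled, these were 2.79 and 3.29 CPM against 5.38 and 5.73 CPM. The groups did not overlap, and the 2 libraries of each group lay close together. The log2 fold change was 0.87 (SE 0.20, adjusted p = 0.00576 by edgeR quasi-likelihood with Benjamini-Hochberg adjustment). It passed in all 15 alternatives, with a highest adjusted p of 0.0486 by the same adjustment. S100P thus changed by about as much as S100A2 did, from a lower level per kilobase (6.47 against 31.7 RPKM in shNC) and from another chromosome.

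S100A3, a zinc- and calcium-binding protein best known from the hair cuticle, read 6.72 and 6.2 CPM in shNC and 8.38 and 10.6 CPM in sh812. Its counts were 255 and 196 against 294 and 380. The sh812 libraries differed from each other by 0.34 on the log2 scale, and the lower of them still lay above both shNC libraries. The log2 fold change was 0.55 (SE 0.16, adjusted p = 0.0225, edgeR quasi-likelihood, Benjamini-Hochberg). Without sh812 replicate 2 it was 0.37 (adjusted p = 0.355), so the call rests on that library, and with DESeq2 it was 0.56 (adjusted p = 0.0959).

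S100A6, or calcyclin, a partner of the ubiquitin-ligase adaptor CACYBP, made up the largest share of the family's reads. It read 766 and 949 CPM in shNC and 1033 and 1064 CPM in sh812. The shNC libraries differed by 0.31 on the log2 scale, about as much as the 0.29 log2 fold change between groups (SE 0.07, adjusted p = 0.00848, edgeR quasi-likelihood, Benjamini-Hochberg). The groups did not overlap, but shNC replicate 2 lay nearer to the sh812 libraries than to the other shNC library. The call was lost with DESeq2 (0.29, adjusted p = 0.257) and without sh812 replicate 2 (0.27, adjusted p = 0.0787). The size moved with the shNC libraries, to 0.14 without replicate 1 and 0.46 without replicate 2, and passed in both. The 3 genes whose pattern over the 4 libraries lay nearest to that of S100A6, of 10831 genes compared by Euclidean distance of centred log2 CPM, were TST (distance 0.0113), EEF1AKMT4 (0.0127) and RPS20 (0.024).

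S100A10 is the family member that no longer binds calcium. It stays bound to annexin A2 and gathers plasminogen activation at the cell surface. It read 348 and 367 CPM in shNC and 425 and 439 CPM in sh812. Replicates lay within 0.08 on the log2 scale and the groups were clearly separate. Its log2 fold change was 0.27 (SE 0.06, adjusted p = 0.00302, edgeR quasi-likelihood, Benjamini-Hochberg), and without sh812 replicate 2 it was 0.25 (adjusted p = 0.118).

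S100A11, a partner of annexin A1 also called calgizzarin, read 268 and 279 CPM in shNC and 323 and 316 CPM in sh812. The groups did not overlap. Its log2 fold change was 0.23 (SE 0.06, adjusted p = 0.0121, edgeR quasi-likelihood, Benjamini-Hochberg). With either sh812 library left out the call was lost (adjusted p = 0.242 without replicate 1 and 0.14 without replicate 2) while the value stayed between 0.21 and 0.24.

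S100A16, a broadly expressed member, read 387 and 429 CPM in shNC and 456 and 478 CPM in sh812. It had the smallest fold among the 7 that rose, at 1.14. The log2 fold change was 0.19 (SE 0.06, adjusted p = 0.0381, edgeR quasi-likelihood, Benjamini-Hochberg). It lost the call under several settings, among them scaling by library size alone (0.15, adjusted p = 0.0875) and leaving out shNC replicate 1 (0.12, adjusted p = 0.0771). Without sh812 replicate 1 it was 0.23 (adjusted p = 0.179), and without sh812 replicate 2 it was 0.16 (adjusted p = 0.407).

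S100A13, which assists the export of FGF1 and interleukin-1 alpha, read 14 and 16 CPM in shNC and 16.4 and 20.3 CPM in sh812. The groups lay close without overlapping, and the log2 fold change of 0.29 (SE 0.12) did not pass (adjusted p = 0.136, edgeR quasi-likelihood, Benjamini-Hochberg). Without shNC replicate 2 it was 0.39 and passed (adjusted p = 0.0199), and without sh812 replicate 2 it was 0.13 (adjusted p = 0.764). It was 0.44 without sh812 replicate 1 and did not pass. S100A14, an epithelial member, had 76 and 57 counts in shNC and 72 and 97 in sh812, or 2 and 1.8 CPM against 2.05 and 2.71 CPM. Its log2 fold change was 0.32 with an SE of 0.29 (adjusted p = 0.543), and its sh812 libraries differed from each other by 0.40.

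S100A4, the metastasis-associated partner of non-muscle myosin heavy chain MYH9, read 10.8 and 15.8 CPM in shNC and 14.8 and 16.1 CPM in sh812. It was the only member whose groups overlapped. Its log2 fold change was 0.22 (SE 0.14, adjusted p = 0.356, edgeR quasi-likelihood, Benjamini-Hochberg), and the shNC libraries alone differed by 0.56. The direction hung on which shNC library was used. The value was -0.04 without shNC replicate 1 (adjusted p = 0.919) and 0.53 without shNC replicate 2 (adjusted p = 0.00266). Whether its change differed from that of S100A3, which lies within its span, was not tested.

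Over the 10 genes, the summed level was 1833 and 2101 CPM in shNC and 2340.0 and 2409.5 CPM in sh812, a ratio of means of 1.21 ± 0.119. Reads of these 10 genes made up 0.188% and 0.211% of all counts in shNC and 0.23% and 0.238% in sh812. The 4 abundant genes carried 95.3% to 96.5% of them, so the sum says little about S100A2 or S100P.

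The number of calls depended on the libraries kept. Without shNC replicate 1, 6 of the 10 rose (5.24% of all genes tested in that fit), and without shNC replicate 2, 9 did (9.5%). Without sh812 replicate 1, 5 rose (1.46%), and without sh812 replicate 2 only S100A2 and S100P did (1.55%). With 1 library left in an arm, that library is assumed to vary like the other arm. DESeq2 called 5 (6.14% of its genes, with no adjusted p given for S100A14), and scaling by library size alone called 6 (3.34%).

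Transcript length moved with the comparison. Across 12254 genes, the change between groups correlated with transcript length at Spearman rho = -0.33, as a description across genes that share the 4 libraries. The difference between the 2 shNC libraries, which share a label, did so at -0.32, and that between the 2 sh812 libraries at 0.04. The median log2 fold change ran from 0.12 in the shortest of 10 length classes to -0.10 in the longest. The S100 transcripts are 566 to 1279 bases long, where the median tested gene has 2644. Of the tested genes no longer than 1279 bases, 9.49% rose, and of the longer ones 4.55% did.

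**Figure D2:**
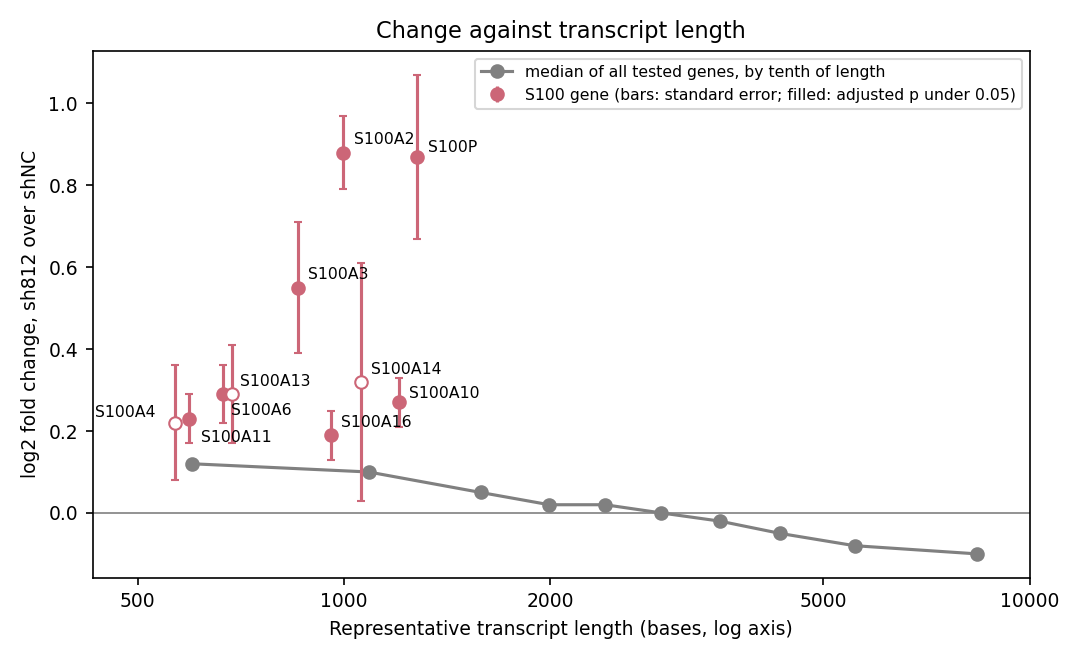
Log2 fold change of sh812 over shNC against representative transcript length in bases on a log axis, with grey points for the median of all tested genes in each of 10 length classes and red points for the S100 genes with their standard errors (filled where the adjusted p is under 0.05). All 10 genes sit among the short transcripts and above the grey line, S100A2, S100P and S100A3 by the widest margin.

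With each library's trend on length removed, 3 of the 10 genes rose, where 5.11% of all tested genes did. S100A2 stayed at 0.77 on the log2 scale (SE 0.08, adjusted p = 1.3e-07, edgeR quasi-likelihood, Benjamini-Hochberg). S100P kept 0.78 (SE 0.20, adjusted p = 0.0101) and S100A10 kept 0.18 (SE 0.05, adjusted p = 0.023) in the same fit. S100A3 fell short at 0.42 (adjusted p = 0.0867), as did S100A6 at 0.14 (adjusted p = 0.0945). S100A11 was at 0.07 (adjusted p = 0.48) and S100A16 at 0.08 (adjusted p = 0.403). The trend removed at the lengths of these genes was 0.09 to 0.16 between groups. It was 0.12 for S100A2 beside its change of 0.88, and 0.16 for S100A11 and 0.12 for S100A16 beside changes of 0.23 and 0.19. The same trend between the 2 shNC libraries was 0.08 to 0.11 at these lengths.

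The GENCODE transcripts of S100P, S100A10 and S100A6 begin well before their first RefSeq starts. Counted from the first RefSeq start where it lies in an exon, and otherwise in full, the 10 transcripts are 434 to 1051 bases long. With lengths measured in this way for all genes, 2 of the 10 rose, where 5.09% of all tested genes did. They were S100A2 at 0.77 (adjusted p = 2.18e-07) and S100P at 0.69 (adjusted p = 0.0234), while S100A10 was at 0.12 (adjusted p = 0.13), each by edgeR quasi-likelihood with Benjamini-Hochberg adjustment. All 10 values stayed above 0 under both corrections, between 0.06 and 0.78.

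**Figure D3:**
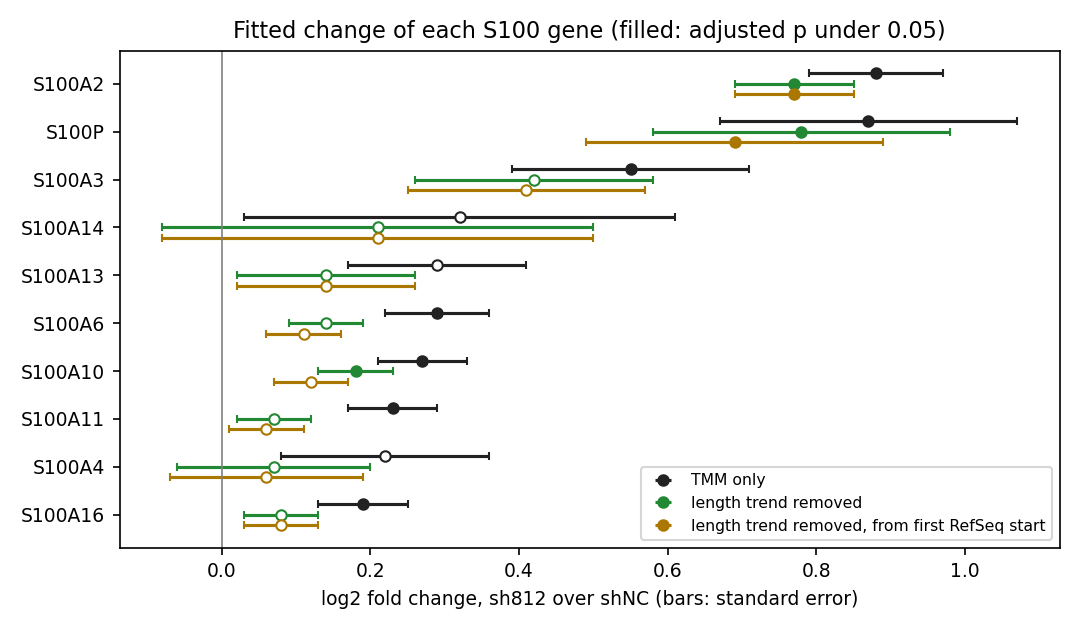
Log2 fold change of each S100 gene, sh812 over shNC, with its standard error, after TMM scaling alone (black), with the length trend removed (green) and with lengths counted from the first RefSeq start (brown), filled where the adjusted p is under 0.05. S100A2 and S100P are filled in all 3 fits, and S100A6, S100A11 and S100A16 are filled only in black, at 0.29, 0.23 and 0.19.

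Of the other 11 S100 genes in the table, 3 passed the low-count filter and 0 were called by edgeR, with 0 at an unadjusted p under 0.05. DESeq2, which gave an adjusted p for 1 of them, and limma-voom also called 0. At an unadjusted p under 0.05 DESeq2 had 1 gene, lower in sh812, and limma-voom had 0. S100A9, a subunit of the neutrophil protein calprotectin, had 238 and 222 counts in shNC and 248 and 270 in sh812 (log2 fold change 0.14, adjusted p = 0.651, edgeR quasi-likelihood, Benjamini-Hochberg). Its partner S100A8 had 20, 6, 2 and 0 counts in the same order of libraries and was not tested. S100A5 had 33 and 24 counts against 26 and 58, and S100A1 had 21 and 14 against 6 and 14. S100A7 had 0, 0, 0 and 2 counts and S100Z had 6, 0, 4 and 0. S100A7A, S100A7L2, S100A12, S100B and S100G had 0 in all 4 libraries. Of the 7 genes that fuse an S100 domain to long repeats, such as the filaggrins, 5 had counts, 2 were tested and 0 were called by edgeR or limma-voom, with 0 at an unadjusted p under 0.05.

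Genes of proteins that S100 proteins bind or act through were mixed. Of 34 listed, 29 were tested, 2 rose and 3 fell, where 5.43% and 5.42% of all tested genes did. The median log2 fold change was -0.03, against -0.01 over all genes. ANXA2, the annexin bound to S100A10, read 1984 and 2111 CPM in shNC and 2257 and 2240.4 CPM in sh812 (0.14, adjusted p = 0.112, edgeR quasi-likelihood, Benjamini-Hochberg). AHNAK, the giant scaffold that joins that complex, was at 0.11 (adjusted p = 0.292), and at 0.22 (adjusted p = 0.00456) with the length trend removed. CACYBP, the S100A6 partner, rose by 0.25 (adjusted p = 0.0108). SUGT1, a co-chaperone bound by S100A6, rose by 0.25 (adjusted p = 0.03) and did not pass with the length trend removed (0.15, adjusted p = 0.188), with scaling by library size alone (adjusted p = 0.0815) or with either sh812 library left out. CACYBP did not pass without sh812 replicate 1 (adjusted p = 0.34).

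The genes of the plasminogen system around S100A10 were not counted as a set. Of its activators, PLAU had a mean of 1275 CPM in shNC and 1234 CPM in sh812. Its log2 fold change was -0.05 (adjusted p = 0.653, edgeR quasi-likelihood, Benjamini-Hochberg). PLAT, the tissue plasminogen activator, fell. It read 44.5 and 44.8 CPM against 34.2 and 38.1 CPM (log2 fold change -0.30, adjusted p = 0.0208, edgeR quasi-likelihood, Benjamini-Hochberg), and with DESeq2 it did not pass (adjusted p = 0.0516), nor did it without sh812 replicate 1 (adjusted p = 0.368).

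Among receptors, TLR4, which recognises S100A8 and S100A9, fell, with 132 and 113 counts in shNC and 14 and 2 in sh812 (log2 fold change -3.94, adjusted p = 1.88e-06, edgeR quasi-likelihood, Benjamini-Hochberg). With so few counts the size depends on the library, at -5.89 without sh812 replicate 1 and -3.13 without sh812 replicate 2. DESeq2 put TLR4 at -3.96 and gave no adjusted p for it. AGER, the receptor of S100P and S100A4, was barely present, at 1.23 to 2.14 CPM, and did not pass (-0.36, adjusted p = 0.584). Inside the cell, MYH9, bound by S100A4, was at -0.13 (adjusted p = 0.135). EZR, the ezrin gene and partner of S100P, was at 0.16 (adjusted p = 0.0975), and S100PBP, which encodes an S100P-binding protein, at 0.09 (adjusted p = 0.636).

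**Figure D4:**
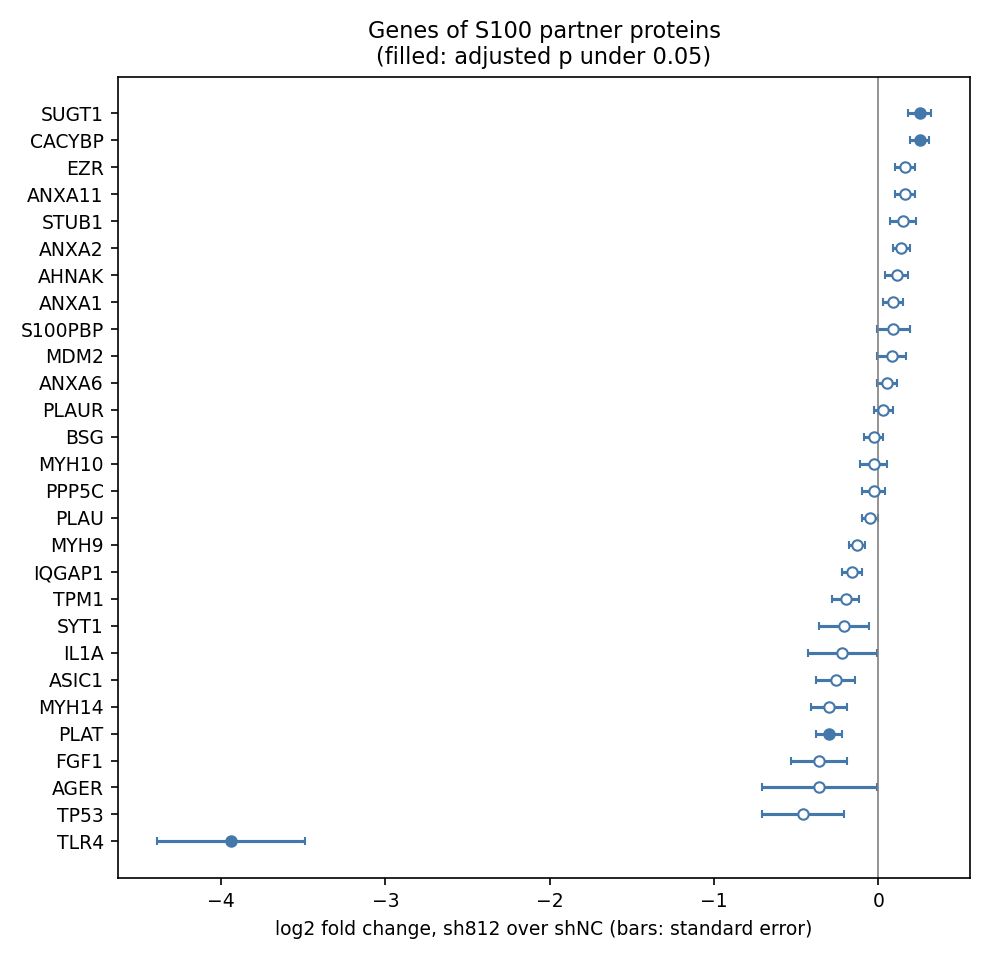
Log2 fold change, sh812 over shNC, with its standard error for the tested genes of S100 partner proteins, all but 1 of which are drawn, filled where the adjusted p is under 0.05. TLR4 at -3.94 stands far below the other genes drawn, and SUGT1 and CACYBP at 0.25 are the highest.

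Calcium-binding genes of other EF-hand families were mixed. Of 21 listed, 20 were tested, 3 rose and 2 fell, with a median of 0.05. Over all tested genes 5.43% rose and 5.42% fell, with a median of -0.01. The centrin CETN2 rose by 0.29 (adjusted p = 0.00241), the neuronal calcium sensor HPCAL1 by 0.27 (adjusted p = 0.00421) and sorcin, SRI, by 0.24 (adjusted p = 0.0244). CALM3, 1 of the calmodulin genes, fell by 0.39 (adjusted p = 0.000202), and CALU, the endoplasmic reticulum protein calumenin, fell by 0.22 (adjusted p = 0.0106), all on the log2 scale by edgeR quasi-likelihood with Benjamini-Hochberg adjustment. These 5 passed with the length trend removed as well. HPCAL1 (adjusted p = 0.183) and CETN2 (adjusted p = 0.056) did not pass without sh812 replicate 2, and SRI and CALU did not pass with either sh812 library left out. SRI also missed without shNC replicate 1 (adjusted p = 0.0609) and with scaling by library size alone (0.19, adjusted p = 0.0655).

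Genes of other families beside the S100 genes on chromosome 1 were counted in the same way. Of 18 listed neighbours, 16 were tested, 1 rose and 0 fell, near the shares over all tested genes (5.43% and 5.42%), with a median of 0.11 against -0.01 over all. At an unadjusted p under 0.05 by edgeR 6 of the 16 were higher and 0 lower. Over all 16802 tested genes 4161 passed in either direction. That count was not split by direction, so it gives no background for the 6 higher genes alone. At the same unadjusted threshold DESeq2 had 2 and limma-voom 6 of the neighbours, with 0 lower. By adjusted p DESeq2 and limma-voom also called 1 higher and 0 lower. The gene that rose was ILF2, an RNA-binding protein gene, at 0.21 (adjusted p = 0.0175, edgeR quasi-likelihood, Benjamini-Hochberg), and with the length trend removed it was at 0.15 (adjusted p = 0.052). It did not pass with either sh812 library left out (adjusted p = 0.362 and 0.14). Among the 9 S100 genes described here on chromosome 1, log2 fold changes ranged from 0.19 for S100A16 to 0.88 for S100A2. The 3 other tested S100 genes, S100A5, S100A9 and S100A1, lie in the same run. They were at 0.53 (adjusted p = 0.521), 0.14 (adjusted p = 0.651) and -0.82 (adjusted p = 0.495) in the same edgeR fit.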

How the data were processed

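Gene-level raw counts for 4 poly(A) libraries of PC3 cells were used as the authors deposited them. The submitters' processing notes name fastp, STAR 2.7.1a, featureCounts, DESeq2 and the build hg38. Which annotation release and which strand option the counting used is not given in the sources used here. The labels' protocols describe dUTP-marked paired-end libraries. Groups were taken from the labels. Counts were filtered with filterByExpr, scaled by TMM and tested with edgeR 4.0.16 (quasi-likelihood, R 4.3.3), with Benjamini-Hochberg adjustment over all genes tested and a threshold of 0.05. The standard error is the log2 fold change over the root of its F value. The fit was run on simulated counts that held no length trend. It called 87% of log2 changes of 1.0 and 71% of those of 0.5, with 3 false calls among 161. Smaller changes were not simulated. Lengths came from GENCODE 29 (the transcript with the longest coding sequence), and a lowess trend of span 0.3 on length was removed per library as an offset. Promoters came from RefSeq (GRCh38.p14), which held windows for all 10 genes. Alternatives included DESeq2 1.42.0, limma 3.58.1 (voom), other scalings and filters, a replicate block and leaving out each library. The members and lists were chosen with earlier results of these data known. All 10 members are named, with fixed names and the called genes of the other lists, except that 1 called partner gene, included in the counts, is not reported here.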

Additional observations from a re-analysis of the deposited data

How the results depend on the processing

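S100A2 and S100P kept their direction and their call under all 15 alternatives. Of the S100 genes, 7 rose, and 3 with the length trend removed, 3 with that and the replicate block, 2 with lengths from the first RefSeq start (chosen after seeing the data), and 2 to 9 when 1 library was left out. S100A4 ranged from -0.04 (without shNC replicate 1) to 0.53. All genes that rose numbered 912, 561 by library size alone and 261 to 1703 with 1 library left out. Those that fell numbered 910, 585 by DESeq2 and 326 to 1549 with 1 library left out. Partner genes that rose numbered 1 by library size alone and 4 by DESeq2, and those that fell 6 and 1. The causes were not tested. The replicate numbers are not stated to pair the libraries, and the correlation of same-numbered deviations was 0.0164. With the replicate block alone, 1003 genes rose and 998 fell, with 7 S100 genes among those that rose. S100A14 and S100P had the lowest counts of the 10 genes, 57 to 205 per library.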
